A study of Mus musculus with 18 samples.

Results

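The genes described here encode collagen chains. They were chosen by symbol alone: every gene of the deposited table of normalised counts whose symbol is COL, a number, A and a number. There were 38 such genes among the 16925 rows of that table. By the type of collagen they encode, 10 are fibrillar, 8 belong to basement membranes, 7 form networks or beaded filaments, 7 associate with fibrils and 6 are transmembrane or other collagens.

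The tissue was brain resected around experimental metastases in mice labelled WT, collected 10 days after 40000 tumour cells had been injected, with 6 brains in each of the 3 models. The melanoma model carried B16-F10-BrM4 cells, mouse melanoma cells derived from the line B16-F10 (replicates 1 to 6). The lung cancer model carried 482N1 cells (replicates 7 to 11 and 13), and the breast cancer model carried EO771-BrM3 cells, derived from the EO771 mouse mammary carcinoma line (replicates 14 to 19). Each model rests on 1 cell line. The sources used here name no mouse strain or age, and tumour-free brain was not analysed here, so every comparison below is between models. Poly(A)+ RNA of each piece of tissue was sequenced in bulk. Whether fewer cells of a type or less RNA per cell underlies a lower value cannot be told apart in such data, and tumour cells, host cells or both can have made the RNA of a gene.

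Collagens are the main structural proteins of the extracellular matrix. Each molecule is a triple helix of chains rich in glycine and proline, which are hydroxylated, glycosylated and folded in the endoplasmic reticulum before secretion. Fibrillar procollagens then lose their end propeptides, assemble into fibrils and are cross-linked by lysyl oxidases, while type IV chains form the sheet-like scaffold of basement membranes. Healthy brain parenchyma holds little fibrillar collagen. Its collagens lie mostly in the vessel wall, in the meninges and at the border of the glial end-feet, with vascular and perivascular cells, pericytes and fibroblasts among the known sources.

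Totals ran from 7366250 to 14533877 counts per library, and 3 counts corresponded to 0.206 to 0.407 CPM (a gene's counts scaled to a common library total). Below that level, reads and no reads cannot be separated in 1 library. Melanoma replicate 3 and breast replicates 18 and 19 held fewer reads of long transcripts, with slopes of -0.261, -0.279 and -0.223 in log2 CPM for each doubling of transcript length. The other slopes were -0.124 to 0.192. Collagen transcripts are long, so this bears on their levels in those 3 libraries. Brain cell markers were read throughout: 6 neuronal markers summed to 2800 to 5806 CPM in melanoma, 3456 to 4911 in lung and 2229 to 3683 in breast libraries. Astrocyte markers summed to 2260 to 3515 CPM in melanoma, 4135 to 6014 in lung and 4114 to 5056 in breast libraries. For microglia and macrophage markers the sums were 180 to 337, 700 to 1219 and 635 to 1105 CPM. Of the 6 microglia and macrophage markers, 6 were lower in melanoma than in lung and 5 lower in melanoma than in breast libraries. Of the 6 astrocyte markers 3 and 4 were. Among all genes tested 14.7% and 19.2% were lower in these comparisons. Both sums were low where collagen was low, around melanoma, and their part in the collagen differences was not tested. Much of the astrocyte gap was Gfap, at 276 to 450 CPM in melanoma, 1494 to 3009 in lung and 1657 to 1915 in breast libraries. Slc1a2, Slc1a3 and Aldoc overlapped between melanoma and each other model. Melanocyte markers summed to 3651 to 22830 CPM in melanoma libraries and to at most 8.27 elsewhere. Epithelial markers summed to 309 to 1316 CPM in lung, 66.2 to 167 in breast and 4.78 to 5.86 in melanoma libraries. No marker gene of any list was at 0 reads over all libraries of a model.

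The 38 genes together were lowest around melanoma and highest around lung tumours. Their summed level was 467 ± 81.1 CPM (mean ± SD, n = 6, here and below) in melanoma libraries, with a lowest value of 307, a median of 498 and a highest of 520. In lung libraries it was 1514 ± 533 CPM, from 1088 over a median of 1298 to 2423. In breast libraries it was 1009 ± 211 CPM, from 725 over a median of 973 to 1253. The melanoma libraries lay below all others and the lung and breast ranges overlapped. The collagen genes took 0.0468% ± 0.00844 of reads in melanoma, 0.152% ± 0.0514 in lung and 0.100% ± 0.0216 in breast libraries.

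**Figure D1:**
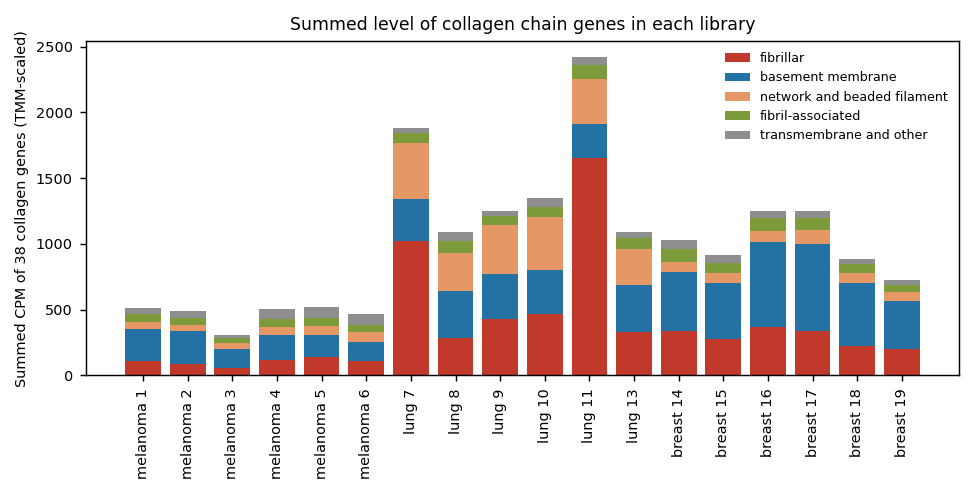
Summed CPM of the 38 collagen chain genes in each of the 18 libraries (TMM-scaled; 1 bar per library, coloured by collagen type, in stacked segments). The melanoma bars reach 307 to 520 CPM, lung replicates 7 and 11 stand out through their fibrillar segment, and the breast bars have the tallest basement membrane segments.

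The makeup of the collagen RNA differed as well as its amount. Counted per kilobase of the longest annotated transcript, so that genes can be added and compared, fibrillar chains made up 38.4% ± 17.1 of the collagen signal in lung libraries, 26.6% ± 2.98 in breast and 20.8% ± 3.22 in melanoma libraries. Lung replicates 7 and 11, with 51.3% and 67.0%, set the lung mean: the lung median was 31.0%, and the other 4 lung libraries, from 23.2% to 31.2% with a mean of 28.1% ± 3.77 (n = 4), lay in about the range of the breast libraries, 22.5% to 30.9%. Basement membrane chains made up 48.2% ± 4.37 in breast, 37.1% ± 7.62 in melanoma and 21.6% ± 7.79 in lung libraries. Network and beaded filament chains made up 30.7% ± 7.61 in lung libraries against 16% ± 3.81 in melanoma and 10.4% ± 1.20 in breast libraries. These shares sum to a whole within a library, so a rise of 1 type lowers the others. On the CPM scale, which does not have this constraint, fibril-associated chains summed to 55.7 ± 10.8 CPM in melanoma, 83.1 ± 14.7 in lung and 81.0 ± 16.4 in breast libraries. Transmembrane and other chains summed to 61.2 ± 22.3 CPM in melanoma, 54.1 ± 15.3 in lung and 51.2 ± 13.1 in breast libraries, within 1 SD of each other. These sums were not tested.

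Of the 38 genes, 34 had enough reads to be tested, and 22 of them (64.7%) differed among the 3 models at an adjusted p under 0.05 (edgeR quasi-likelihood test, Benjamini-Hochberg adjustment over 17174 genes), where 35.8% of all genes tested did. Col4a3, Col6a6, Col9a1 and Col28a1 were read too thinly and had means under 1 CPM in every model. In melanoma against lung libraries 17 collagen genes were called (background over all genes tested 23.2%), of which 16 were lower (14.7%) and 1 was higher (8.51%), with a median log2 fold change of -0.54 against 0.02 over all genes. In breast against lung libraries 18 were called (background 18.3%), of which 12 were lower (7.16%) and 6 higher (11.2%), with a median of -0.25 against -0.02. In melanoma against breast libraries 11 were called (background 28.9%), of which 8 were lower (19.2%) and 3 higher (9.76%), with a median of -0.31 against 0.04. The lung libraries enter 2 of these comparisons, and so does each other model, so the 3 counts do not support each other. The background moved with the libraries used: for breast over lung 1229 of all genes were lower, against 1902 without melanoma replicate 3 and 2317 without the 3 libraries poor in long transcripts, where 2040 were higher and the majority turned. The collagen counts for breast over lung were then 12 lower and 6 higher, and 11 lower and 6 higher. No library of 1 model overlapped the other for 13 of the genes lower in melanoma than in lung (background 9.63%), for 8 lower and 3 higher in breast than in lung (5.91% and 8.94%), and for 5 lower and 1 higher in melanoma than in breast (12.1% and 4.98%).

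**Figure D2:**
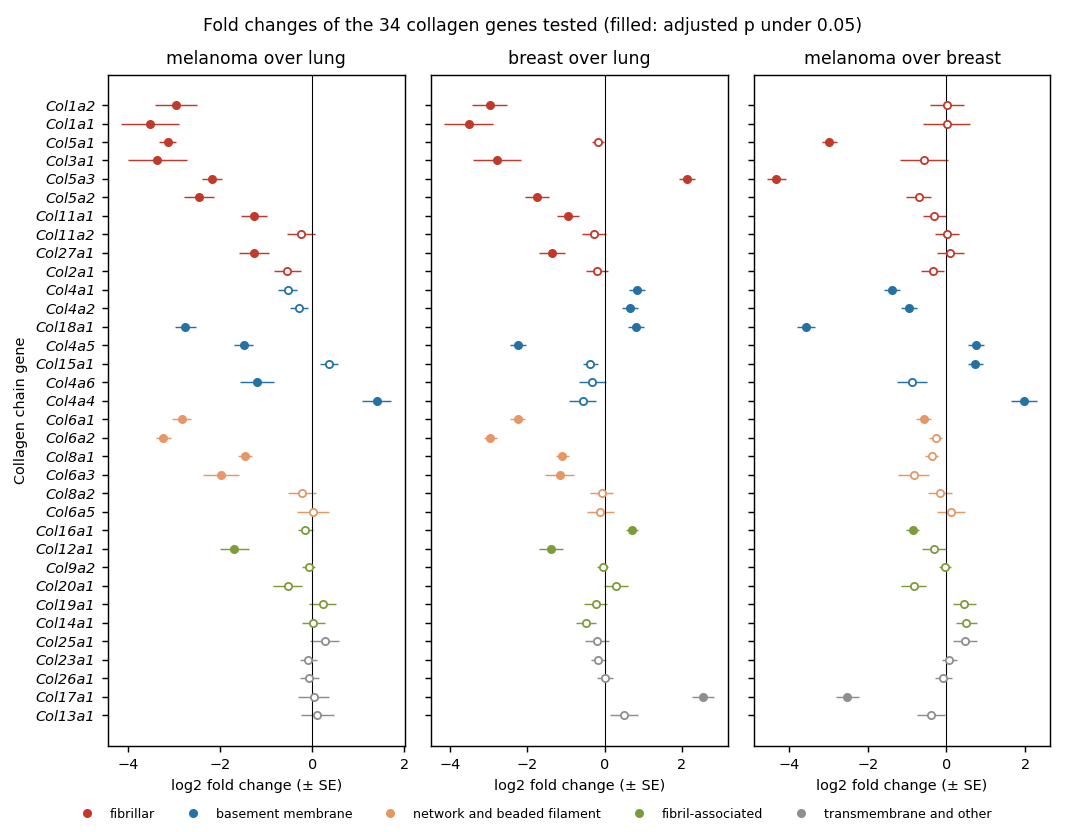
Log2 fold changes with their standard errors for the 34 collagen genes tested, 1 panel for each pair of models, with filled points at an adjusted p under 0.05 and colours for the collagen type. Most fibrillar chains and Col6a1, Col6a2, Col6a3 and Col8a1 lie left of 0 in both comparisons with lung, and Col5a3, Col18a1, Col4a1, Col4a2, Col16a1 and Col17a1 lie right of 0 for breast over lung.

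Fibrillar collagens were mostly higher in lung libraries than in both other models. Of 10 such genes 8 were lower in melanoma than in lung libraries (background over all genes tested 14.7%) and none was higher (background 8.51%). In breast against lung libraries 6 were lower (background 7.16%) and 1 higher (background 11.2%). Melanoma and breast libraries differed in 2 (20%), under the 28.9% of all genes tested. Col1a1 and Col1a2 encode the chains of type I collagen, the main fibril of skin, bone and scar. Col1a2 had a lowest, median and highest level of 13.5, 30.6 and 41.4 CPM in melanoma, 84.7, 142 and 585 in lung, and 14.3, 27.0 and 45.0 in breast libraries. Every lung library lay above every other one. The log2 fold change of Col1a2 was -2.97 ± 0.45 (SE) for melanoma over lung (adjusted p = 5.19e-05), -2.98 ± 0.46 for breast over lung (adjusted p = 8.02e-05) and 0.01 ± 0.43 for melanoma over breast (adjusted p = 0.992). Col1a1 was at 4.23, 14.4 and 19.8 CPM in melanoma, 28.5, 70.3 and 486 in lung, and 6.29, 10.9 and 25.4 in breast libraries. Its lung libraries again lay above all others, with log2 fold changes of -3.52 ± 0.63 (adjusted p = 0.000266) and -3.53 ± 0.63 (adjusted p = 0.000412) for melanoma and breast over lung.

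Col3a1, the chain of type III collagen, which forms fine fibrils with type I in vessel walls, was at 7.18, 11.7 and 16.5 CPM in melanoma, 12.3, 55.9 and 375 in lung, and 12.1, 17.7 and 23.3 in breast libraries. It and the other genes outside the naming rule given with the methods were picked out after their values were seen. Lung replicates 8 and 13, at 12.3 and 20.2 CPM, fell within the range of the breast libraries, so that the groups overlapped although the mean differed (log2 fold change -3.37 ± 0.65, adjusted p = 0.000535, for melanoma over lung and -2.79 ± 0.63, adjusted p = 0.00339, for breast over lung). Col5a2, a chain of the type V collagen that seeds and thins type I fibrils, stood at 3.21, 5.31 and 6.78 CPM in melanoma, 13.8, 21.5 and 59.0 in lung, and 6.29, 8.15 and 10.3 in breast libraries. All lung libraries were higher (log2 fold change -2.47 ± 0.32, adjusted p = 7.43e-06, and -1.76 ± 0.31, adjusted p = 0.000368, for melanoma and breast over lung).

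The 2 partners of Col5a2 in type V collagen did not share its pattern. Col5a1 had a lowest, median and highest level of 6.74, 9.88 and 11.8 CPM in melanoma, 72.4, 83.8 and 100.2 in lung, and 54.5, 65.8 and 106 in breast libraries. Lung and breast libraries overlapped and all melanoma libraries were lower. The log2 fold change of Col5a1 was -3.14 ± 0.18 for melanoma over lung (adjusted p = 2.18e-10), -2.97 ± 0.18 for melanoma over breast (adjusted p = 5.49e-10) and -0.17 ± 0.17 for breast over lung (adjusted p = 0.555). Col5a3 was at 4.29, 5.98 and 8.54 CPM in melanoma, 21.1, 25.0 and 38.2 in lung, and 75.6, 110 and 172 in breast libraries. None of the 3 groups overlapped for Col5a3, the only fibrillar gene higher in breast than in lung libraries (log2 fold change 2.15 ± 0.21, adjusted p = 3.00e-07), and its log2 fold change for melanoma over breast was -4.32 ± 0.23 (adjusted p = 1.09e-10).

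The remaining fibrillar genes were read less. Col11a1, which encodes a chain of the cartilage fibril collagen XI, was at 8.24 ± 3.32 CPM in melanoma, 19.7 ± 3.74 in lung and 10.1 ± 4.12 in breast libraries (log2 fold change -1.26 ± 0.29, adjusted p = 0.00243, and -0.95 ± 0.28, adjusted p = 0.0231, for melanoma and breast over lung). The second of these calls was lost without lung replicate 13 (adjusted p = 0.0524). Col27a1, another cartilage collagen, was at 5.37 ± 2.56, 12.8 ± 3.43 and 4.91 ± 1.97 CPM and was lower in both models than in lung libraries (log2 fold changes -1.26 ± 0.33 and -1.36 ± 0.33, adjusted p = 0.00744 and 0.00625). Col11a2 and Col2a1 passed no test, with means of 11.6 to 14.1 and 1.63 to 2.35 CPM.

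**Figure D3:**
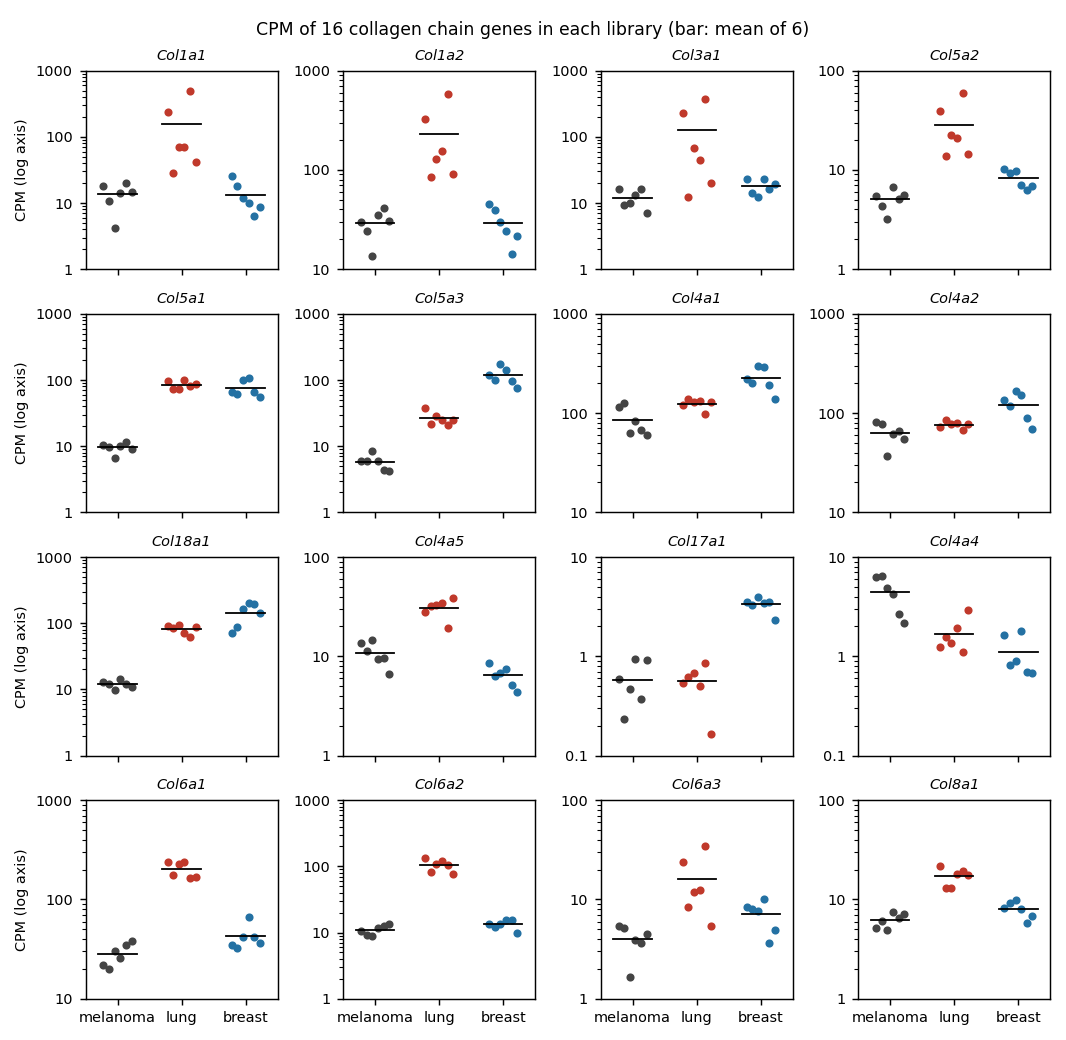
CPM (log axis) of 16 collagen chain genes in each of the 18 libraries, 1 point per library, with the mean of 6 libraries as a bar. Col1a1, Col1a2, Col3a1 and Col5a2 spread widely among the lung libraries, Col5a1, Col6a1 and Col6a2 do not, and Col5a3 rises from melanoma over lung to breast without overlap.

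The 250 bases before the start of 4 fibrillar genes are shown because these genes follow 3 different patterns over the models: Col1a2 and Col3a1 (high in lung), Col5a1 (high in lung and breast) and Col5a3 (highest in breast). The sequences are from RefSeq on GRCm38.p6 and read 5′ to 3′ on the gene's strand. Col1a1 had no window in the table used. Capitals mark the letters of 4 promoter motifs, searched on both strands: the box CCAAT, the GC box GGGCGG (on the other strand CCGCCC), the TATA box TATAAA and the AP-1 motif TGANTCA, with N for any base. None of the motifs overlaps another in these windows.
Col1a2 (chr6:4505368-4505617, plus strand): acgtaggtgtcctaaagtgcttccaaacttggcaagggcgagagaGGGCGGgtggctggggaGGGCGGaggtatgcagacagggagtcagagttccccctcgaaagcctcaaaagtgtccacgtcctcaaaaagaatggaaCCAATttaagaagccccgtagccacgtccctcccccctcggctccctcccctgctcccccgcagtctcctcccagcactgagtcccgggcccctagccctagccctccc
Col3a1 (chr1:45311288-45311537, plus strand): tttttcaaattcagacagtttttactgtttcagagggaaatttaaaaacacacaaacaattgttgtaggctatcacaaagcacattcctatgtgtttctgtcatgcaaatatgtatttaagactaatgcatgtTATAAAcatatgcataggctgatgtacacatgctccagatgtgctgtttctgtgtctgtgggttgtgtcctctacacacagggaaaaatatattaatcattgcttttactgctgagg
Col5a1 (chr2:27886175-27886424, plus strand): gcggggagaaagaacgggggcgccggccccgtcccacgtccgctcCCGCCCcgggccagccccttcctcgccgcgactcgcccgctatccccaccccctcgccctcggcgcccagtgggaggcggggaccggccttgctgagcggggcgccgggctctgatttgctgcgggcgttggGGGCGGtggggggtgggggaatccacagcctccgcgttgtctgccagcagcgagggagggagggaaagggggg
Col5a3 (chr9:20815068-20815317, minus strand): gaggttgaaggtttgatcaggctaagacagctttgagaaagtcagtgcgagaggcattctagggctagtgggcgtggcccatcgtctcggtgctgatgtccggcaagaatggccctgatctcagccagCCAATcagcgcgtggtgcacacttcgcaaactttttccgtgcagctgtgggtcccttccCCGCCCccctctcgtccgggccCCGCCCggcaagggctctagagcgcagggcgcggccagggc

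The windows differed in base composition. G and C made up 62.0% of the Col1a2 window, 35.2% of that of Col3a1, 76.4% of that of Col5a1 and 62.8% of that of Col5a3. The Col3a1 window held TATAAA and none of the other 3 motifs, and the other windows held GGGCGG at 2 places each. Among the 31 collagen genes with a window, 19 (61.3%) held GGGCGG, where 32.7% of all 32851 windows of this length did. CCAAT was in 10 of the 31 (32.3%) against 33.8% of all windows, TATAAA in 4 (12.9%) against 12.4%, and TGANTCA in 1 (3.23%) against 6.75%. Each collagen gene entered with 1 window, while the shares over all windows count every window listed, whether or not its gene was read. The shares thus rest on unlike sets. A match is a match of letters only and was not tied to any factor.

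The fibrillar genes also varied strongly among the lung libraries themselves. Col1a1 was at 240 CPM in lung replicate 7, 28.5 in replicate 8, 71.0 in replicate 9, 69.6 in replicate 10, 486 in replicate 11 and 42.3 in replicate 13. Col3a1 followed with 230, 12.3, 68.0, 43.9, 375 and 20.2 CPM in the same order of libraries, and Col1a2 with 327, 84.7, 128, 156, 585 and 92.0. Replicates 7 and 11 were the highest for all 3 genes, and also for Col5a2 (38.9 and 59.0 CPM, the others 13.8 to 22.2) and Col6a3 (23.9 and 34.2 CPM, the others 5.40 to 12.5). Col5a1, Col6a1 and Col6a2 had no such spread, with 81.2, 164 and 105 CPM in replicate 11.

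**Figure D4:**
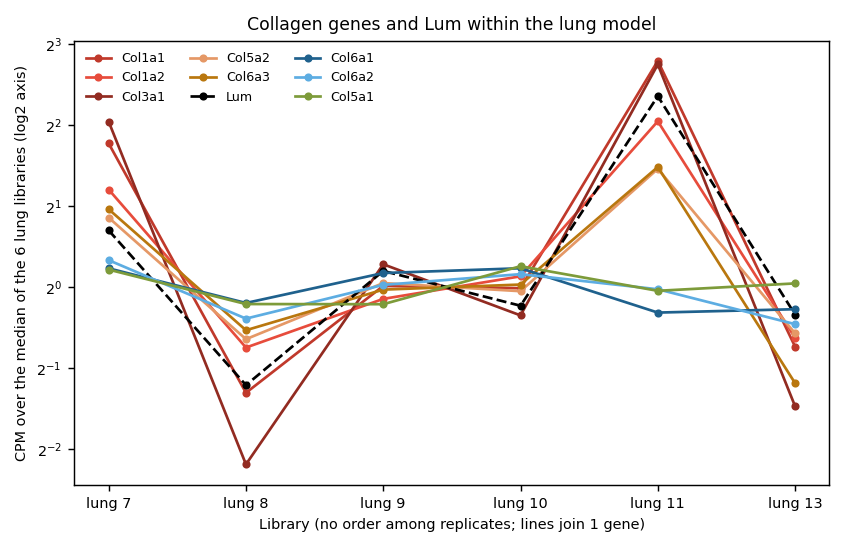
CPM of 8 collagen genes and Lum in each of the 6 lung libraries, divided by the median over these libraries (log2 axis; each line joins the values of 1 gene, and the replicates have no order). Col1a1, Col1a2, Col3a1, Col5a2, Col6a3 and Lum are highest in replicate 11 and next highest in replicate 7, while Col5a1, Col6a1 and Col6a2 stay close to their medians.

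Lum, a fibril-binding proteoglycan made by fibroblasts, was at 13.4 CPM in lung replicate 7 and 42.3 in replicate 11 against 3.58 to 9.49 in the other lung libraries, 3.06 to 5.39 in melanoma and 2.997 to 6.14 in breast libraries. Another fibroblast gene, Dcn, was at 55.6 CPM in replicate 11, 42.4 in replicate 13, 37.98 in replicate 7 and 25.1 to 29.4 in the other lung libraries. Pdgfra, Slc6a13 and Twist1, also fibroblast markers, did not peak in both replicates 7 and 11. Pdgfra was at 30.5 and 47.5 CPM there and at 37.9 to 52.6 in the other lung libraries. Slc6a13 was at 6.64 and 8.53 CPM against 4.68 to 10.5. Twist1 was at 33.6 CPM in replicate 7, its highest lung value, and 22.7 in replicate 11, against 14.9 to 30.9. The 6 fibroblast markers together (Pdgfra, Dpt, Slc6a13, Lum, Dcn and Twist1) summed to 54.9 to 113 CPM in melanoma, 103 to 177 in lung and 193 to 296 in breast libraries, so that their sum was highest in breast and not in lung libraries. Most of the breast sum was Pdgfra, also a marker of oligodendrocyte precursors, at 119 to 199 CPM. Dpt was under 1 CPM in every library. Smooth muscle markers summed to 39.3 to 49.7 CPM in melanoma, 67.5 to 165 in lung and 64.1 to 94.3 in breast libraries. Among them Tagln was at 14.8 to 29.5, 40.4 to 136.5 and 39.4 to 76.9 CPM in the same order of models. Myh11 was at 2.04 to 11.9, 1.63 to 6.47 and 1.54 to 5.69 CPM. Of these 5 markers 2 were lower and 0 higher in melanoma than in lung libraries (background 14.7% and 8.51%). For pericyte markers the sums were 145 to 234, 142 to 228 and 192 to 256, and for endothelial markers 240 to 370, 331 to 387 and 386 to 492. Few markers made the higher breast sums. Of 8 pericyte markers 1 was higher and 0 lower in breast than in lung libraries, and of 8 endothelial markers 2 were higher and 1 lower (background 11.2% higher and 7.16% lower). Anpep, a pericyte marker, was at 33.6 to 66.8 CPM in breast and 4.82 to 17.75 in lung libraries. The endothelial Cdh5 was at 44.8 to 83.2 and 15.7 to 25.1 CPM, and Slc2a1 at 164 to 232 and 93.4 to 132. The part of these cells in the collagen differences was not tested.

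With replicates 7 and 11 left out, a step chosen after seeing the data, the type I difference was smaller and remained called: the log2 fold change of Col1a1 was -1.96 for melanoma over lung (adjusted p = 0.00151) and -2.03 for breast over lung (adjusted p = 0.00172), and that of Col1a2 was -1.98 (adjusted p = 0.000110) and -2.04 (adjusted p = 0.000131). Leaving out replicate 11 alone gave -2.71 and -2.78 for Col1a1. The log2 fold change of Col3a1 for melanoma over lung was -1.57 (adjusted p = 0.00541) without both libraries and -2.60 without replicate 11, and that for breast over lung was -1.05 (adjusted p = 0.0691) and -2.08 (adjusted p = 0.0107). The log2 fold changes of Col5a2 for melanoma and breast over lung were -1.80 and -1.15 without both libraries, with adjusted p of 4.96e-06 and 0.000697, and those of Col6a3 were -1.24 and -0.47, with adjusted p of 0.00836 and 0.346.

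Among basement membrane collagens, all 7 genes tested differed among the models (background over all genes tested 35.8%), in several directions. In melanoma against lung libraries 3 were lower (background 14.7%) and 1 higher (background 8.51%). In breast against lung libraries 1 was lower (background 7.16%) and 3 higher (background 11.2%). In melanoma against breast libraries 3 were lower (background 19.2%) and 3 higher (background 9.76%). A count of 1 among 7 genes is too small to set against these shares. Col4a1 and Col4a2, whose chains form the type IV network found in nearly all basement membranes, were highest in breast libraries. Col4a1 had a lowest, median and highest level of 60.4, 75.6 and 126 CPM in melanoma, 99.0, 129 and 138 in lung, and 140, 210 and 301 in breast libraries. All breast libraries lay above all others, with a log2 fold change of 0.85 ± 0.20 over lung (adjusted p = 0.00573) and -1.38 ± 0.21 for melanoma over breast (adjusted p = 2.99e-05). The difference between melanoma and lung was -0.54 ± 0.20 and did not pass (adjusted p = 0.0658).

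Col4a2 was at 63.2 ± 16.1 CPM in melanoma, 76.8 ± 6.08 in lung and 122 ± 37.6 in breast libraries. Its level was higher in breast than in melanoma libraries (log2 fold change of melanoma over breast -0.94 ± 0.20, adjusted p = 0.00109). The difference from lung (0.66 ± 0.20, adjusted p = 0.0240) was lost without lung replicate 11 (adjusted p = 0.0634), breast replicate 16 (adjusted p = 0.0724) or breast replicate 17 (adjusted p = 0.0628), and its groups overlapped. On GRCm38.p6 Col4a1 (chr8:11198423-11312889) and Col4a2 (chr8:11312805-11449287) lie head to head and overlap by 85 bases. The sources used here do not say whether counting used the strand, so reads from that overlap cannot be assigned.

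Col18a1, the heparan sulfate-bearing collagen XVIII whose end fragment is endostatin, showed the widest gap between melanoma and the other models among basement membrane genes. It was at 9.72, 12.1 and 14.3 CPM (lowest, median and highest) in melanoma, 62.4, 86.0 and 92.8 in lung, and 72.2, 152 and 200 in breast libraries. No melanoma library overlapped the others, with log2 fold changes of -2.76 ± 0.22 over lung (adjusted p = 1.80e-08) and -3.58 ± 0.23 over breast (adjusted p = 9.66e-10). Breast and lung libraries overlapped and differed by 0.82 ± 0.21 (adjusted p = 0.00819). That last call was lost when lung replicates 7 and 11 were left out together (0.73, adjusted p = 0.0540).

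The minor type IV chains went other ways. Col4a5, a chain of specialised basement membranes such as that of the kidney glomerulus, was highest in lung libraries: 6.69, 10.5 and 14.7 CPM in melanoma, 19.1, 32.3 and 38.6 in lung, and 4.37, 6.55 and 8.58 in breast libraries. All lung libraries lay above the rest, with log2 fold changes of -1.49 ± 0.20 (adjusted p = 1.27e-05) and -2.24 ± 0.21 (adjusted p = 2.03e-07) for melanoma and breast over lung. Melanoma exceeded breast by 0.74 ± 0.21 (adjusted p = 0.01001), a call lost without the 3 libraries poor in long transcripts (adjusted p = 0.0589). Col4a6, the partner chain of Col4a5 in smooth muscle and epithelial basement membranes, was at 1.65 ± 0.864, 3.77 ± 1.30 and 2.92 ± 1.32 CPM in melanoma, lung and breast libraries. It was lower in melanoma than in lung libraries (-1.20 ± 0.37, adjusted p = 0.0209), a call lost without lung replicate 10 (adjusted p = 0.0504) or melanoma replicate 2 (adjusted p = 0.0543).

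Col4a4 was the collagen gene higher in melanoma than in lung libraries. It also encodes a chain of the glomerular type IV network, and was at 2.15, 4.57 and 6.39 CPM in melanoma, 1.10, 1.46 and 2.94 in lung, and 0.682, 0.861 and 1.81 in breast libraries. Melanoma and breast libraries did not overlap (log2 fold change 1.97 ± 0.33, adjusted p = 0.000112), and melanoma and lung libraries did (1.40 ± 0.31, adjusted p = 0.00205). Its partner Col4a3 was at 0.406 ± 0.290, 0.755 ± 0.153 and 0.568 ± 0.329 CPM, near the level of 3 counts. Col15a1, which lies on the outer face of vascular basement membranes, was at 11.3 ± 2.13, 8.73 ± 1.26 and 6.70 ± 2.48 CPM and differed between melanoma and breast libraries (0.74 ± 0.20, adjusted p = 0.00835).

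Several network and beaded filament collagens were also highest in lung libraries. Of 6 genes tested 4 were lower in melanoma than in lung libraries (background over all genes tested 14.7%). The same number was lower in breast than in lung libraries (background 7.16%). Only 1 (16.7%) was lower in melanoma than in breast libraries, under the 19.2% of all genes tested. Collagen VI, a beaded filament that anchors cells and basement membranes to the surrounding matrix, is built from the chains of Col6a1 and Col6a2 with one more, most often that of Col6a3. Col6a1 had a lowest, median and highest level of 19.96, 27.9 and 37.9 CPM in melanoma, 164, 204 and 239 in lung, and 32.6, 39.2 and 66.2 in breast libraries. The lung libraries lay far above the others (log2 fold changes -2.84 ± 0.20, adjusted p = 2.95e-09, and -2.26 ± 0.20, adjusted p = 7.13e-08, for melanoma and breast over lung). Melanoma and breast libraries overlapped, and their difference of -0.58 ± 0.19 (adjusted p = 0.0261) was lost when breast replicate 17, the highest breast library, was left out (-0.41, adjusted p = 0.0875), and also without breast replicate 18 or melanoma replicate 1, 2 or 4 (adjusted p of 0.0671, 0.0613, 0.0663 and 0.0645).

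Col6a2 was at 9.01, 11.2 and 13.5 CPM in melanoma, 78.1, 107 and 135 in lung, and 9.96, 13.6 and 15.7 in breast libraries. No lung library overlapped another model (-3.24 ± 0.16, adjusted p = 3.06e-11, and -2.96 ± 0.16, adjusted p = 1.21e-10, for melanoma and breast over lung), and melanoma and breast did not differ past the threshold (-0.28 ± 0.15, adjusted p = 0.194). Col6a3 was read less, at 4.04 ± 1.35, 16.1 ± 10.9 and 7.11 ± 2.37 CPM in melanoma, lung and breast libraries. It was lower in melanoma than in lung libraries (-1.99 ± 0.39, adjusted p = 0.000694). Its difference between breast and lung (-1.16 ± 0.38, adjusted p = 0.0388) was lost without lung replicate 7 (adjusted p = 0.0864), without lung replicate 11 (adjusted p = 0.106), and without any 1 of breast replicates 14, 15, 16, 18 and 19 (adjusted p of 0.0501 to 0.0685). The windows before Col6a1 and Col6a2 are given, with the same motifs in capitals, because these neighbours on chromosome 10, 85161 bases apart, were both highest in lung libraries.
Col6a1 (chr10:76726045-76726294, minus strand): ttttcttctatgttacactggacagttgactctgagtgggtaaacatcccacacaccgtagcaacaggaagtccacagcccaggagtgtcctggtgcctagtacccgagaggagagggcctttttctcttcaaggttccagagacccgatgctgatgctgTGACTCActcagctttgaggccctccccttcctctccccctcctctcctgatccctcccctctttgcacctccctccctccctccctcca
Col6a2 (chr10:76623631-76623880, minus strand): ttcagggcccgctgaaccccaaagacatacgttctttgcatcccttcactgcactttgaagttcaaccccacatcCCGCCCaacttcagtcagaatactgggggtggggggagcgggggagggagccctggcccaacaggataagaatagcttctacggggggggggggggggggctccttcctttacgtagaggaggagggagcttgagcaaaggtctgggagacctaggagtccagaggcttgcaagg

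Of the 31 collagen windows that of Col6a1 alone held TGANTCA, the letters of an AP-1 site, and it held none of the other 3 motifs. The Col6a2 window held GGGCGG at 1 place, on the opposite strand. Col8a1, a short-chain network collagen of vessel walls and of the cornea, was at 6.21 ± 0.999 CPM in melanoma, 17.1 ± 3.40 in lung and 7.98 ± 1.52 in breast libraries. The lung libraries did not overlap the others (-1.46 ± 0.16, adjusted p = 1.11e-06, and -1.09 ± 0.16, adjusted p = 5.31e-05). Its partner Col8a2, at 6.96 ± 3.15, 8.12 ± 2.92 and 7.67 ± 2.31 CPM, passed no test, nor did Col6a5 at 0.757 to 0.806 CPM.

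Fibril-associated collagens, which decorate fibrils and link them to other matrix, were called in 2 of 6 genes tested (any difference among the models), a share near the 35.8% of all genes. Col12a1, found on type I fibrils of dense tissue, was at 3.92, 10.5 and 14.96 CPM (lowest, median and highest) in melanoma, 23.0, 30.0 and 55.4 in lung, and 6.14, 12.97 and 18.1 in breast libraries. The lung libraries lay above all others (-1.70 ± 0.32, adjusted p = 0.000401, and -1.38 ± 0.31, adjusted p = 0.00359, for melanoma and breast over lung). Col16a1, whose product lies beside fibrils and cell surfaces, was at 19.98, 24.9 and 38.3 CPM in melanoma, 23.1, 28.8 and 36.2 in lung, and 34.8, 49.2 and 60.2 in breast libraries. It was higher in breast libraries, with overlap (0.71 ± 0.17, adjusted p = 0.00462, over lung and -0.86 ± 0.17, adjusted p = 0.000495, for melanoma over breast). Col9a2, a cartilage collagen also read in brain, was at 7.59 ± 1.72, 8.01 ± 0.945 and 7.73 ± 1.03 CPM, with log2 fold changes of -0.08 to -0.03 and standard errors of 0.15. Col14a1, Col19a1 and Col20a1 had means of 1.32 to 6.505 CPM and passed no test.

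Of the transmembrane and other collagens 5 were tested and 1 was called (any difference among the models, background 35.8%), too few genes to set against the background. Col17a1, a hemidesmosome collagen of epithelia, was at 0.234, 0.529 and 0.929 CPM in melanoma, 0.164, 0.581 and 0.861 in lung, and 2.32, 3.48 and 3.97 in breast libraries. All breast libraries lay above all others (2.56 ± 0.29, adjusted p = 2.00e-06, over lung and -2.52 ± 0.29, adjusted p = 1.32e-06, for melanoma over breast), at a level of few reads. Col25a1, a neuronal transmembrane collagen, was read most in this type, at 45.3 ± 18.7, 37.6 ± 13.7 and 32.5 ± 10.7 CPM in melanoma, lung and breast libraries. Its groups overlapped, with log2 fold changes from -0.20 ± 0.31 (breast over lung) to 0.47 ± 0.31 (melanoma over breast). Col23a1, another transmembrane collagen, was at 9.57 ± 2.26, 10.2 ± 1.74 and 9.04 ± 2.14 CPM. Col26a1 was at 4.04 ± 1.20, 4.21 ± 0.866 and 4.25 ± 0.935 CPM, and Col13a1 at 1.19 ± 0.574, 1.10 ± 0.669 and 1.55 ± 0.310 CPM. None of these passed the test.

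The order of the genes by level differed between models, and below its first places it depends on the transcript length used. Per kilobase of the longest transcript, Col4a1 led in melanoma libraries with 12.98 ± 4.27 CPM per kilobase, followed by Col4a2 with 9.79 ± 2.49, Col6a1 with 6.92 ± 1.76, Col25a1 with 6.76 ± 2.79 and Col1a2 with 5.47 ± 1.81. Neighbours in this order were not well separated: Col4a1 exceeded Col4a2 in 5 of 6 libraries, Col4a2 exceeded Col6a1 in 4 and Col6a1 exceeded Col25a1 in 3. With the length of all exons Col4a1, Col4a2 and Col6a1 kept these places, and Col16a1 (3.98 ± 0.955) came before Col25a1 (3.499 ± 1.44), with Col1a2 at 2.35 ± 0.778. In lung libraries Col6a1 led with 49.6 ± 8.93, before Col1a2 with 42.8 ± 36.6, Col1a1 with 26.3 ± 30.1, Col3a1 with 22.5 ± 26.3 and Col6a2 with 21.3 ± 4.45 CPM per kilobase. Col6a1 exceeded Col1a2 in 4 of 6 lung libraries, Col1a2 exceeded Col1a1 in all 6, Col1a1 exceeded Col3a1 in 4, and Col3a1 exceeded Col6a2 in only 2. Without replicate 11, left out after seeing the data, the means were 15.2 ± 14.4 for Col1a1 and 13.4 ± 16.1 for Col3a1 (n = 5), both below Col6a2 with 21.3 ± 4.97 and Col4a1 with 19.6 ± 0.916. With the length of all exons Col1a1 (23.8 ± 27.2) came before Col1a2 (18.4 ± 15.8) and exceeded it in 3 of 6 lung libraries, and Col6a1 still led with 46.4 ± 8.36. In breast libraries the order began with Col4a1 at 33.8 ± 9.33, Col18a1 at 25.6 ± 9.51, Col5a3 at 19.2 ± 5.67, Col4a2 at 18.8 ± 5.82 and Col6a1 at 10.4 ± 2.98, and Col4a2 exceeded Col6a1 in all 6 libraries while Col5a3 exceeded Col4a2 in 3. With the length of all exons Col4a2 (18.4 ± 5.67) came before Col5a3 (17.3 ± 5.10), behind Col4a1 and Col18a1 as before.

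Chains of the same collagen type were compared as log2 ratios of counts per kilobase within each library. Col3a1 was also set beside Col1a1, although their chains belong to different collagen types. In all 12 pairs were formed, 10 had a mean of at least 1 CPM for both chains, and 30 comparisons between models were made by two-sided exact permutation tests over the 924 splits of 6 against 6 libraries, where the smallest possible p is 0.002165. After Benjamini-Hochberg adjustment 12 comparisons were under 0.05. Type I collagen holds 2 chains of Col1a1 to each chain of Col1a2 in its common form. The Col1a1 to Col1a2 ratio was 0.401 in melanoma, 0.482 in lung and 0.402 in breast libraries (geometric means), and no difference between models passed (unadjusted exact permutation p of 0.290, 0.245 and 0.981). The value itself depends on the transcript length used: with all exons of the gene as its length it was 0.841, 1.01 and 0.844. The same holds for the ratios below, but not for their differences between models, where the length cancels. With all exons the Col5a1 to Col5a2 ratio was 2.15, 3.9 and 10.1 in melanoma, lung and breast libraries. That of Col11a1 to Col11a2 was 0.376, 0.772 and 0.469, and that of Col3a1 to Col1a1 was 0.632, 0.45 and 0.974.

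**Figure D5:**
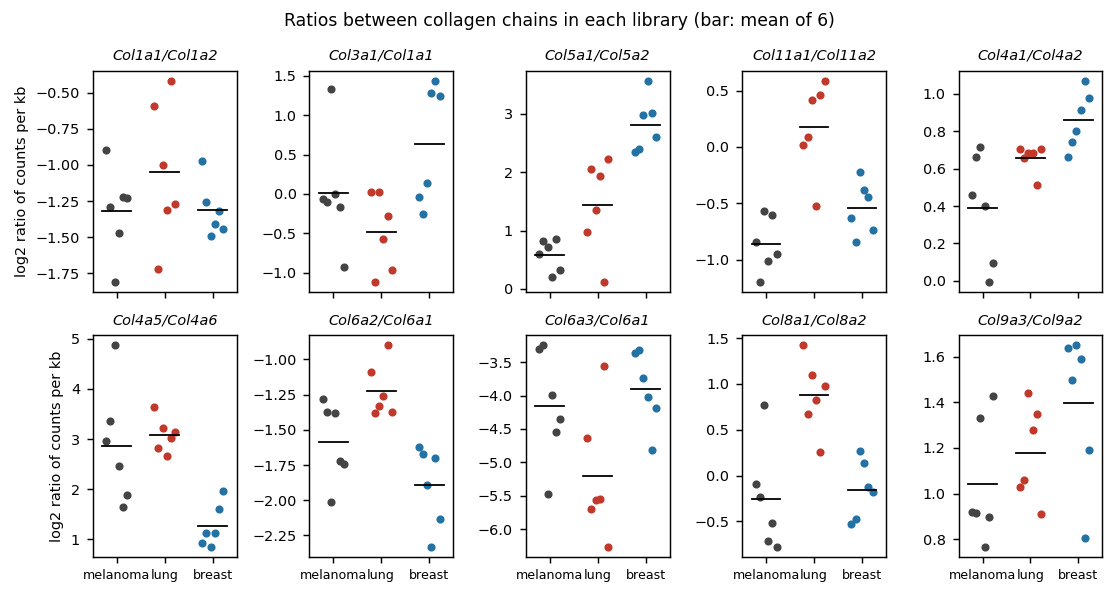
Log2 ratio of counts per kilobase for 10 pairs of collagen chains in each library (1 point per library; bar: mean of 6). The Col5a1 to Col5a2 ratio is higher in breast libraries than in both other models without overlap, and the Col4a5 to Col4a6 and Col6a2 to Col6a1 ratios are lower in breast than in lung libraries without overlap.

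The Col5a1 to Col5a2 ratio had geometric means of 1.5 in melanoma, 2.72 in lung and 7.06 in breast libraries. It ranged from 1.15 to 1.81, from 1.08 to 4.70 and from 5.07 to 11.9, so that breast libraries lay above all others (log2 difference 1.38 for breast over lung and -2.24 for melanoma over breast, adjusted p = 0.0130 for both, exact permutation tests). In the lung libraries it was lowest in replicates 7 and 11, at log2 ratios of 0.98 and 0.12 against 1.36 to 2.23. The Col4a5 to Col4a6 ratio was 7.29, 8.48 and 2.41 in melanoma, lung and breast libraries (log2 difference -1.82 for breast over lung, adjusted p = 0.0130, and 1.60 for melanoma over breast, adjusted p = 0.0260, exact permutation tests). The second of these was lost without breast replicate 16 (adjusted p = 0.0531). These genes also lie head to head, 1274 bases apart on the X chromosome. The Col6a2 to Col6a1 ratio was 0.333, 0.429 and 0.270 (log2 difference -0.67 for breast over lung, exact permutation test, adjusted p = 0.0130).

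The Col11a1 to Col11a2 ratio was 0.550 in melanoma, 1.13 in lung and 0.685 in breast libraries (log2 differences -1.04 and -0.72 for melanoma and breast over lung, adjusted p = 0.0130 and 0.0260, exact permutation tests). That for breast was lost without the 3 libraries poor in long transcripts (adjusted p = 0.0549). The Col8a1 to Col8a2 ratio was 0.836, 1.84 and 0.900 (log2 differences -1.14 and -1.03 for melanoma and breast over lung, adjusted p = 0.0244 and 0.0217, exact permutation tests). The Col4a1 to Col4a2 ratio was 1.31, 1.58 and 1.82 (log2 differences 0.20 for breast over lung and -0.47 for melanoma over breast, adjusted p = 0.0354 and 0.0244, exact permutation tests), and neither passed without those 3 libraries (adjusted p = 0.0804 and 0.0549). The first of these was also lost when any 1 of the 6 lung libraries was left out (adjusted p of 0.0595 to 0.0826). The Col3a1 to Col1a1 ratio, at 1.01, 0.717 and 1.55, was just past the threshold for breast over lung (log2 difference 1.12, adjusted p = 0.0487, exact permutation test) and fell short when any 1 lung library or any 1 of breast replicates 16 to 19 was left out (adjusted p of 0.0541 to 0.105). Its log2 value was 1.33 in melanoma replicate 3 and 1.44 and 1.24 in breast replicates 18 and 19, the libraries poor in long transcripts. It was also high, at 1.28, in breast replicate 17, whose slope on transcript length was only -0.0125.

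Genes that act on collagen were counted from 4 lists. The counts are to be read against the share of all genes tested: 14.7% lower and 8.51% higher for melanoma over lung, 7.16% and 11.2% for breast over lung, and 19.2% and 9.76% for melanoma over breast. Of 17 genes for modifying and folding the chains, 11 were higher and 1 lower in breast than in lung libraries, 11 were lower and 1 higher in melanoma than in breast libraries, and 5 were lower and 1 higher in melanoma than in lung libraries. The median log2 fold change was 0.95 for breast over lung, -0.81 for melanoma over breast and -0.05 for melanoma over lung. P4ha2, a subunit of the prolyl hydroxylase that lets the triple helix form, was at 16.7 ± 1.49 CPM in melanoma, 16.9 ± 2.34 in lung and 40.1 ± 4.23 in breast libraries (log2 fold change of breast over lung 1.24 ± 0.11, adjusted p = 8.02e-08). Plod3, a lysyl hydroxylase, was at 44.1 ± 10.0, 71.0 ± 13 and 174 ± 34.4 CPM, and Fkbp10, a collagen-folding prolyl isomerase, at 19.3 ± 6.36, 39.3 ± 6.63 and 113 ± 31.0 CPM (log2 fold changes of breast over lung 1.30 ± 0.16 and 1.52 ± 0.22, adjusted p = 9.57e-06 and 3.75e-05). For all 3 the breast libraries lay above all others, whereas the type I chains were low there.

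Of 16 genes for secretion, propeptide removal and cross-linking, 9 were lower and 1 higher in melanoma than in lung libraries (background 14.7% and 8.51%), 5 were lower and 5 higher in breast than in lung libraries, and 6 were lower in melanoma than in breast libraries. Creb3l1, a transcription factor of the secretory pathway known to act on type I collagen genes, was at 3.59 ± 0.973 CPM in melanoma, 35.3 ± 7.76 in lung and 4.29 ± 1.34 in breast libraries (-3.29 ± 0.23, adjusted p = 2.97e-09, and -3.02 ± 0.23, adjusted p = 1.27e-08, for melanoma and breast over lung). Loxl4, a lysyl oxidase-like enzyme, was at 0.266 ± 0.203, 9.65 ± 2.33 and 41.8 ± 12.5 CPM with no overlap among the models, and its melanoma level was near that of 3 counts. Adamts14, an aminopropeptidase of fibrillar procollagens, was at 0.652 ± 0.354, 1.43 ± 0.543 and 37.1 ± 11.4 CPM, with every breast library at 21.2 CPM or more (4.69 ± 0.31 over lung, adjusted p = 1.80e-09).

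Of 15 fibril-binding proteoglycans and partners, 9 were lower in melanoma than in lung (background 14.7%), 8 were lower and 1 higher in breast than in lung (7.16% and 11.2%), and 5 were lower in melanoma than in breast libraries. Bgn, the small proteoglycan biglycan, was at 15.4 ± 4.37, 245 ± 43.6 and 15.9 ± 4.93 CPM in melanoma, lung and breast libraries, and Postn, the matricellular protein periostin, at 3.87 ± 0.865, 79.5 ± 25.7 and 3.33 ± 0.243 CPM. Bgn did not share the spread of the type I chains, at 301 and 205 CPM in lung replicates 7 and 11 and 188 to 285 in the others. Nid1, which links laminin to type IV collagen, was at 18.3 ± 4.40, 26.8 ± 3.42 and 224 ± 74.2 CPM and was the member of this list higher in breast than in lung libraries (3.06 ± 0.22, adjusted p = 4.30e-09).

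Of 10 collagen receptors and uptake genes, 4 were lower and 1 higher in melanoma than in lung libraries (background 14.7% and 8.51%), 2 were lower and 2 higher in breast than in lung libraries (7.16% and 11.2%), and 4 were lower in melanoma than in breast libraries (19.2%). These are few genes. Itga1 and Itga2 encode the alpha chains of integrins that bind collagen IV and collagen I. Itga1 was at 15.5 ± 2.68, 13.2 ± 1.48 and 47.6 ± 13.3 CPM in melanoma, lung and breast libraries, and Itga2 at 0.713 ± 0.524, 19.4 ± 9.05 and 18.2 ± 5.42 CPM. Ddr2, a receptor tyrosine kinase that binds fibrillar collagen, was lowest in lung libraries, where most fibrillar chains were highest. Of those chains Col5a1 was about as high and Col5a3 higher in breast libraries. Ddr2 was at 74.2 ± 41.1, 10.9 ± 1.66 and 73.5 ± 17.5 CPM (2.76 ± 0.32, adjusted p = 1.96e-06, and 2.75 ± 0.32, adjusted p = 3.42e-06, for melanoma and breast over lung).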

How the data were processed

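Poly(A)+ RNA of 18 libraries was sequenced from directional libraries made with 1 µg of RNA, per the labels' protocols. The submitters' processing notes name bcl2fastq and GRCm39. The sources used here name no aligner, counter, annotation or strand setting. Raw counts per gene make up the deposited count table, and the CPM table that the authors deposited holds CPM under gene symbols. CPM gave whole reads for 100% of values (tolerance 0.01), at least 99.8% equal to the counts, and for all 38 collagen genes in every library. A symbol was found for 94.0% of the 55416 gene IDs. Of gene symbols matching the collagen pattern in the counts, 6 were not in the CPM table (Col9a3, Col7a1, Col24a1, Col22a1, Col6a4 and Col10a1, with 154 to 4142 reads in all) and are not counted among the 38. Within a model, no 2 libraries were identical, and counts of a pair differed by a chi-square of at least 2.83 per degree of freedom.

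Counts were fitted with edgeR 4.0.16 in R 4.3.3 (robust quasi-likelihood, TMM, filterByExpr, 17174 genes, 1 coefficient per model over 18 libraries) with Benjamini-Hochberg adjustment over all genes and calls at an adjusted p under 0.05. Levels are CPM on TMM-scaled library sizes. Symbols and transcript lengths came from GENCODE M21 and sequences from RefSeq, both on GRCm38, another build than that of the counts, so that coordinates describe the reference only. Ratios of chains used counts per kilobase with 0.5 counts added.

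Genes named by rule were those with a mean of at least 1 CPM in a model that were among the 3 highest of their collagen type, or, for each pair of models, among the 4 largest changes each way that passed without overlap, and the 3 genes with the smallest p in each list of collagen-related genes. The members, lists and tests were chosen with earlier results of these data known. Alternatives were DESeq2 1.42.0, limma 3.58.1 (voom, and log2 of CPM + 1), other scalings and filters, fits of 12 libraries, a trend on transcript length removed, a test against 1.5-fold, libraries left out, and, chosen after seeing the data, lung replicates 7 and 11 left out (the highest in Lum) and reads recovered from CPM, on which edgeR called 3469, 2719 and 4448 genes for melanoma over lung, breast over lung and melanoma over breast. The fit was tested on simulated data.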

Additional observations from a re-analysis of the deposited data

Results flagged for a closer look

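In each of the 38 genes and 3 models the highest and the lowest library were compared with the rest, and in 4 of the 114 groups of 6 libraries 1 library stood apart by more than a Dixon test allows at the 95% level. Chance alone flags about 1 in 20 such groups. Col12a1 was at 55.4 CPM in lung replicate 11 and at 23.0 to 32.1 in the other lung libraries. Col15a1 was at 6.33 CPM in lung replicate 7 and at 8.54 to 9.79 in the others. Col6a1 was at 66.2 CPM in breast replicate 17 and at 32.6 to 42.2 in the others. Col9a1 was at 0.137 CPM in breast replicate 19, under the level of 3 counts, and at 0.631 to 0.787 in the others. The large spread of Col1a1, Col1a2 and Col3a1 among the lung libraries was not picked out in this way, since replicates 7 and 11 were both high.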

How the results depend on the processing

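Among the 38 genes, 22 differed among the models by every scaling, filter and other tool tried, except 23 with the trend on length removed, and 20 to 22 with 1 library left out. No called collagen difference changed direction under any alternative. Against a 1.5-fold change 15, 11 and 6 collagen genes passed for melanoma over lung, breast over lung and melanoma over breast (17, 18 and 11 without that margin). Of all genes 1897, 1053 and 2218 passed (3978, 3149 and 4966 without that margin). With 1 library left out the collagen counts were 16 to 18, 16 to 18 and 10 to 13, those of all genes 3495 to 4623, 2575 to 4113 and 4520 to 8078, and the highest, without melanoma replicate 3, split into 4020 higher and 4058 lower (1676 and 3290 with all libraries). Of all genes 5653 to 8720 then differed among the models, and 10 to 13 chain ratios passed. DESeq2 called 4634, 3659 and 5695 genes. Without the 3 libraries poor in long transcripts 17, 17 and 11 collagen genes were called, beside 5845, 4357 and 5955 of all genes. Without lung replicates 7 and 11 it was 17, 14 and 11, beside 3147, 2574 and 5087 of all genes. The cause of these changes was not tested. Col3a1 for breast over lung did not pass with limma voom (adjusted p = 0.0558), nor did Col6a3 (adjusted p = 0.109). On log2(CPM + 1), which shrinks low values, limma gave smaller log2 fold changes for Col17a1 (1.48 for breast over lung) and Col4a4 (1.37 for melanoma over breast). No paired analysis was possible because the models share no replicate numbers. Genes near 3 counts per library, such as Col4a3 and Col6a6, are not resolved at this depth.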
